A study of Homo sapiens with 27 samples.

Results

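The snoRNA host long non-coding RNA (lncRNA) genes described here were the genes with an SNHG symbol followed by a number, together with GAS5, ZFAS1 and EPB41L4A-AS1, wherever the gene field of a listed peak held such a name, alone or beside others. The RefSeq gene table (GRCh38.p14) held 32 such genes among 59792, and 24 of them had at least 1 peak. They were profiled in HepAD38, a human hepatocellular carcinoma line derived from HepG2 with a hepatitis B virus (HBV) genome under a tetracycline-regulated promoter, labelled wild type. Antibodies against 7-methylguanosine (m7G), N1-methyladenosine (m1A), N4-acetylcytidine (ac4C) and 5-methylcytidine (m5C) gave 3 immunoprecipitated (IP) libraries each, beside 3 input libraries. Pseudouridine (Psi) had 3 libraries, not labelled as IP or input, so that 27 libraries in 9 groups made up the series. The submitters' stated interest was a role of RNA modification in evolution, and each IP against its input asks which RNAs an antibody retained. No other treatment or line was compared, and the sources used here do not say whether HBV transcription was switched on.

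The host peaks numbered 52 of 29708 in the m1A list, 25 of 21827 for m5C, 36 of 16942 for m7G, 7 of 8463 for ac4C and 24 of 16672 for Psi. All values of a list were pooled over its 3 libraries, so none has a replicate error. For a peak, the RPM ratio is its depth-scaled read number (RPM) in the IP divided by that in the input, and the range in parentheses is its 95% exact (Clopper-Pearson) interval, which covers counting error only. The m1A input was deepest (364905848 pooled reads) and the ac4C IP shallowest (17135274). A peak is called higher or lower here where the pooled libraries differed by at least 2-fold. In the authors' deposited table all 120 antibody peaks of the hosts carry a log2 enrichment above 0, including the 21 m1A, 14 m5C and 5 m7G peaks whose RPM ratio was below 1. What that enrichment is measured against is not stated, and the ratios here are relative to library depth. Coordinates are those of hg38. Of 9 hepatocyte markers, 8 were listed in each of the m1A, m5C and m7G lists, and no endothelial marker was listed in any. Of 3 leukocyte markers, 1 (CD68) was listed in all 4 antibody lists, at 17.7 to 47.0 RPM of input.

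A snoRNA host gene carries small nucleolar RNAs in its introns. The intron-encoded RNA is trimmed out after splicing and, packed with its core proteins, guides a modification of ribosomal or spliceosomal RNA: C/D box RNAs (SNORD) guide ribose methylation, H/ACA box RNAs (SNORA) guide pseudouridylation, and scaRNAs act in Cajal bodies. The spliced host RNA that is left is often poorly coding, and several hosts, GAS5 among them, are known to be degraded by nonsense-mediated decay during translation. Many hosts begin, like ribosomal protein mRNAs, with a run of pyrimidines at the first transcribed base. The spans of the 32 hosts held 148 such small RNA genes in the RefSeq table, 121 SNORD, 23 SNORA and 4 SCARNA, of which 83 lay in SNHG14 alone.

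The starts of these genes are shown first, because 11 of the 36 m7G peaks began within 50 bases of the host's annotated 5′ end. Each line gives 60 bases of the RefSeq promoter table, 20 before the annotated start and 40 from it, on the gene's strand, with the longest run of C and T that touches the 10 bases on either side of the start in capitals. The order is that of the ratio of the m7G peak that begins at the start, with ZFAS1 last.
SNHG30 (chr17:35568094-35568153, plus strand): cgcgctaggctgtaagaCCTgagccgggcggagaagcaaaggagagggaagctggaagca
SNHG21 (chr15:82750544-82750603, plus strand): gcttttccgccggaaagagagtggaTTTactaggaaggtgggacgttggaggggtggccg
SNHG26 (chr7:22854220-22854279, plus strand): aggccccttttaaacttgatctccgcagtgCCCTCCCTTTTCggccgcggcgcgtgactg
SNHG1 (chr11:62855846-62855905, minus strand): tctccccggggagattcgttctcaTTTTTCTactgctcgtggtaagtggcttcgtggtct
SNHG16 (chr17:76557744-76557803, plus strand): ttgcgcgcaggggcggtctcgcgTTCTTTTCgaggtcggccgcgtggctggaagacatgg
SNHG29 (chr17:16438967-16439026, plus strand): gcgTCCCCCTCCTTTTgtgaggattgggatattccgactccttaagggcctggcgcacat
SNHG8 (chr4:118278742-118278801, plus strand): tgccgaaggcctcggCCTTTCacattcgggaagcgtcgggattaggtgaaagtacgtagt
SNHG5 (chr6:85678694-85678753, minus strand): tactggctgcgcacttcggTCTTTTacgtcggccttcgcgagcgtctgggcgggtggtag
ZFAS1 (chr20:49278622-49278681, plus strand): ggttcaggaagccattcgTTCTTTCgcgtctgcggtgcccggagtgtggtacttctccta
SNHG16, SNHG29, SNHG8, SNHG5 and ZFAS1 have the letters CTTT within 10 bases of the start, and SNHG30 and SNHG21 have runs of only 3 pyrimidines there. SNHG22, not shown, also has an m7G peak at its start and a run of 3.

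Over the 28 hosts with a promoter entry (29 entries), CTTT within 10 bases of the start on the gene's strand was found in 10 entries, 34.5%. All 35116 entries of the table held it in 9.52%. The protein-coding snoRNA hosts were 249 protein-coding genes whose span holds a SNORD, SNORA or SCARNA gene that lies outside the host lncRNA genes. Of their 294 promoter entries, from 197 genes, 14.97% held it. On the other strand the shares were 3.45% for the hosts and 6.83% for the whole table. The hosts with it were SNHG4, SNHG5, SNHG8, SNHG12, SNHG16, SNHG19, SNHG29, SNHG32, SNHG33 and ZFAS1. The motif was chosen after these sequences had been seen, so its share is a description of them. GAS5, whose entry starts at the annotated end of the gene, showed no run of more than 3 pyrimidines in the window searched. Its first m7G peak begins 1041 bases from that end, and no other start of GAS5 was searched. For SNHG12 and ZFAS1 the promoter entry starts inside the gene's annotated span.

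m7G, the base of the mRNA cap and also an internal modification, was the mark in which host peaks stood highest against input outside the ac4C list. Of 36 peaks in 18 hosts, 19 were at least 2-fold higher in the IP and none was 2-fold lower. In the whole m7G list 37.6% of peaks were called higher and 0.0472% lower. The median ratio was 2.15 for the hosts, 1.36 for all peaks, 2.40 for 378 peaks of other lncRNA genes and 1.09 for 486 peaks of protein-coding snoRNA hosts. The hosts therefore stood near other lncRNAs in this measure. After division by the list's median ratio, 12 host peaks (33.3%) were called higher, against 52.8% before. In the whole m7G list 28.8% of peaks were called higher after the same division.

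**Figure D1:**
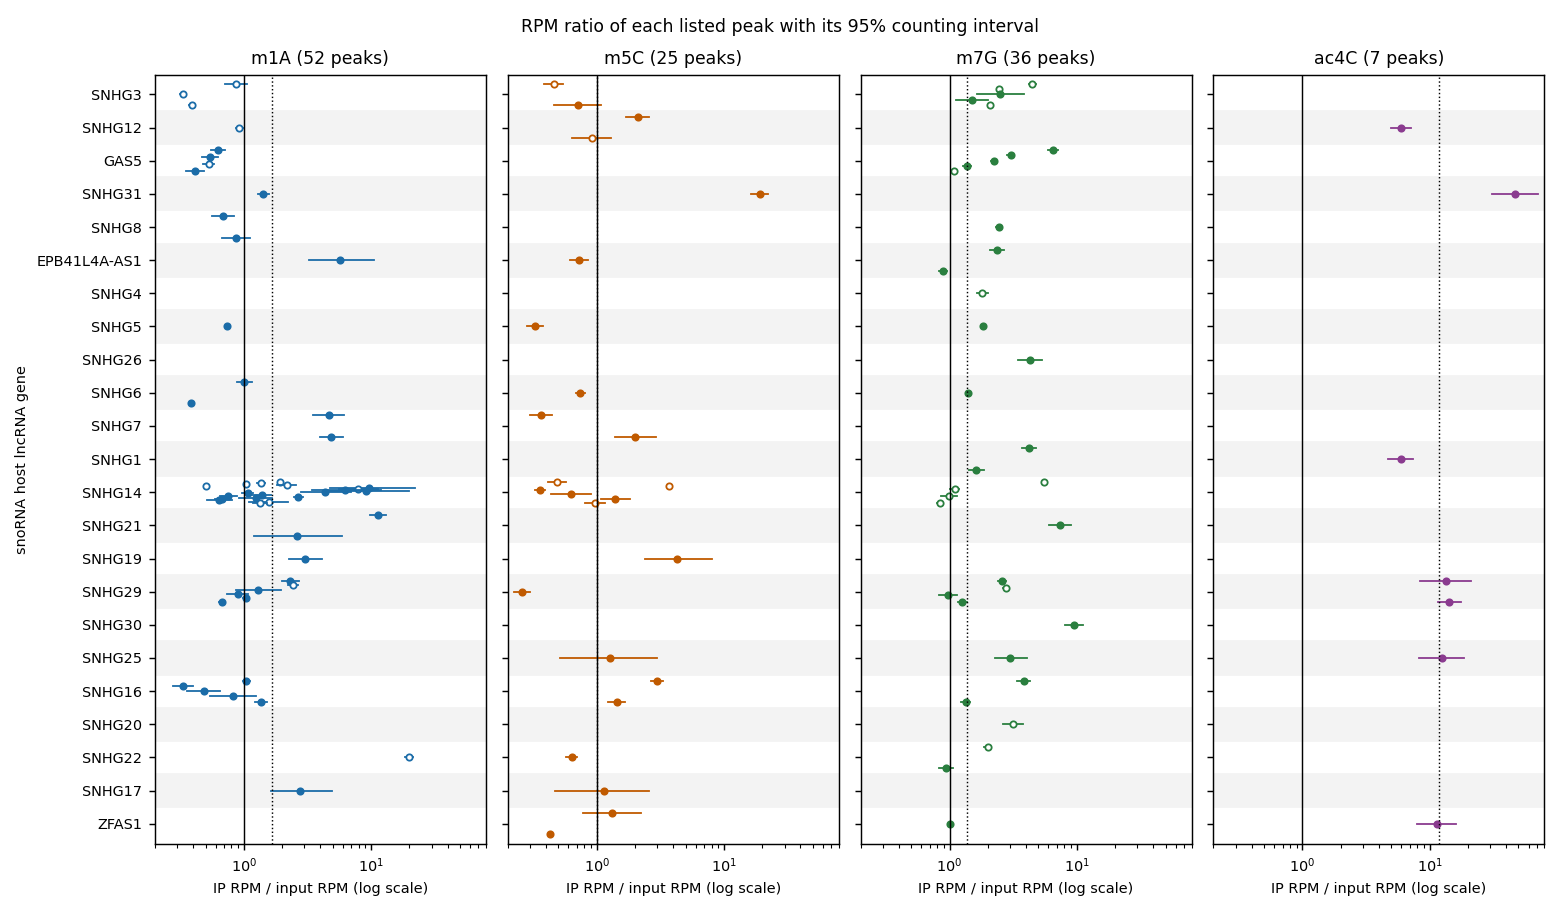
RPM ratio (IP over input, log scale) of each listed antibody peak of the 23 hosts that have one, with its 95% counting interval, in 4 panels by modification; peaks of a host run from its 5′ end downwards, open circles mark peaks that name a further gene, the solid line is a ratio of 1 and the dotted line the median of the whole list. No m7G or ac4C peak was 2-fold below input, while m1A and m5C peaks lay on both sides of 1.

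The top pair of m7G ratios, in SNHG30 and SNHG21, lay at annotated starts, and the next, 6.54 in GAS5 and 5.57 in a peak shared by SNHG14, lay further in. SNHG30 gave 6.22 RPM in the IP and 0.655 in the input over its first 125 bases (chr17:35568114-35568238), a ratio of 9.49 (8.10 to 11.2). SNHG21, host of a scaRNA, gave 3.17 and 0.432 RPM over its first 150 bases, a ratio of 7.35 (6.03 to 9.04). Both have the short pyrimidine runs printed above. SNHG1, host of 8 SNORD genes, had 4.88 against 1.16 RPM at its start, a ratio of 4.21 (3.71 to 4.79), and 2.13 against 1.32 RPM at its second peak, a ratio of 1.62 (1.41 to 1.86). The ratio was 4.29 (3.47 to 5.33) for SNHG26 and 3.82 (3.38 to 4.33) for SNHG16.

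The 11 peaks at an annotated 5′ end were in 11 hosts and had a median ratio of 3.02, with 8 of them called higher. The other 25 m7G peaks had a median of 1.62, with 11 called higher. Over all m7G peaks 37.6% were called higher. The share of all m7G peaks that begin at an annotated 5′ end, and their ratios, were not measured. Whether this split is particular to the hosts was therefore not tested. Peaks at a start with a lower ratio were those of SNHG22 (1.99), SNHG5 (1.84) and SNHG6 (1.40). Some of the 11 peaks hold several blocks, and the ratio of a peak covers all its blocks. The SNHG5, SNHG6 and SNHG26 peaks have 4 blocks each. Those of SNHG6 reach 3476 bases from the annotated end and those of SNHG26 6311 bases, so these ratios do not describe the start alone. The split depends on the start used. The m7G peak of ZFAS1 (1.01) begins 450 bases from the annotated end, beside its promoter entry's start, and counts among the other 25. Fewer peaks began at a 5′ end in the other lists: 6 of 52 for m1A, 4 of 25 for m5C and 1 of 7 for ac4C.

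GAS5, a growth-arrest associated RNA that hosts 10 SNORD genes and 1 SNORA gene, had 5 m7G peaks and gave the clearest gradient. From 5′ to 3′, at 1041, 2007, 2251, 2480 and 2817 bases from the annotated end, the ratios were 6.54, 3.03, 2.23, 1.37 and 1.09. The first lay at chr1:173867980-173868004 with 13.0 against 1.99 RPM, and the last, which also names SNORA103, had 13.8 against 12.7 RPM. Each ratio was below the one before it, with no overlap of neighbouring intervals. The 4 m1A peaks of GAS5 ran in the same order, from 0.624 at 2251 bases to 0.544, 0.528 and 0.413 at 3505 bases. Neighbouring m1A intervals overlapped in each case.

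A higher ratio at the first than at the last m7G peak was found in 8 of 8 hosts with several peaks. In the whole list the same was true of 89.4% of 4182 genes with 2 to 5 peaks, close to the share in the hosts. For m1A it held in 6 of 9 hosts against 73.2% of genes with as many peaks, and for m5C in 3 of 6 against 32.9%. SNHG29 showed it in both lists, with m7G ratios of 2.58 at its first peak and 1.26 at its last and m1A ratios of 2.32 and 0.674.

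Other m7G peaks covered a range of input levels. ZFAS1, host of 3 SNORD genes and named for its place antisense to the start of ZNFX1, had 45544 IP and 44276 input reads, or 172.9 against 170.7 RPM, a ratio of 1.013 (1.0001 to 1.027). Its input level, 42.7 RPM per 100 bases of peak, was the highest among the host peaks of this list. SNHG5 had 76.8 against 41.8 RPM, and SNHG8 14.996 against 6.098 RPM, a ratio of 2.46 (2.32 to 2.61). EPB41L4A-AS1, an RNA transcribed opposite EPB41L4A, had 2.34 (2.07 to 2.66) at its first peak and 0.889 (0.829 to 0.953) at its second.

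Several m7G peaks name a neighbouring or overlapping gene and cannot be given to the host alone. The peak with the most reads, 202 against 97.1 RPM and a ratio of 2.08, names SNHG3 and RCC1, and the first peak of that pair had a ratio of 4.49 (4.23 to 4.76). The 3 SNHG3 peaks between them had 2.43, where RCC1 is named too, and 2.51 and 1.495 under SNHG3 alone. Of the peak with the most reads, only the block at 4929 to 4949 bases lies in the SNHG3 span of 4950 bases. Its other blocks, from 10782 bases on, lie beyond that span. A peak shared by SNHG14, SNRPN and SNURF had 163.6 against 29.4 RPM, a ratio of 5.57 (5.44 to 5.71). SNHG20 shared its peak with SEC14L1 (3.14) and SNHG4 with MATR3 (1.81). The block of the SNHG4 peak from 19639 bases lies beyond that gene's span of 10800 bases. The lowest m7G ratio, 0.843 (0.795 to 0.894), was that of a peak naming SNHG14 and PWARSN. Among the 24 m7G peaks that name a host alone, 13 were called higher and the median ratio was 2.29.

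**Figure D2:**
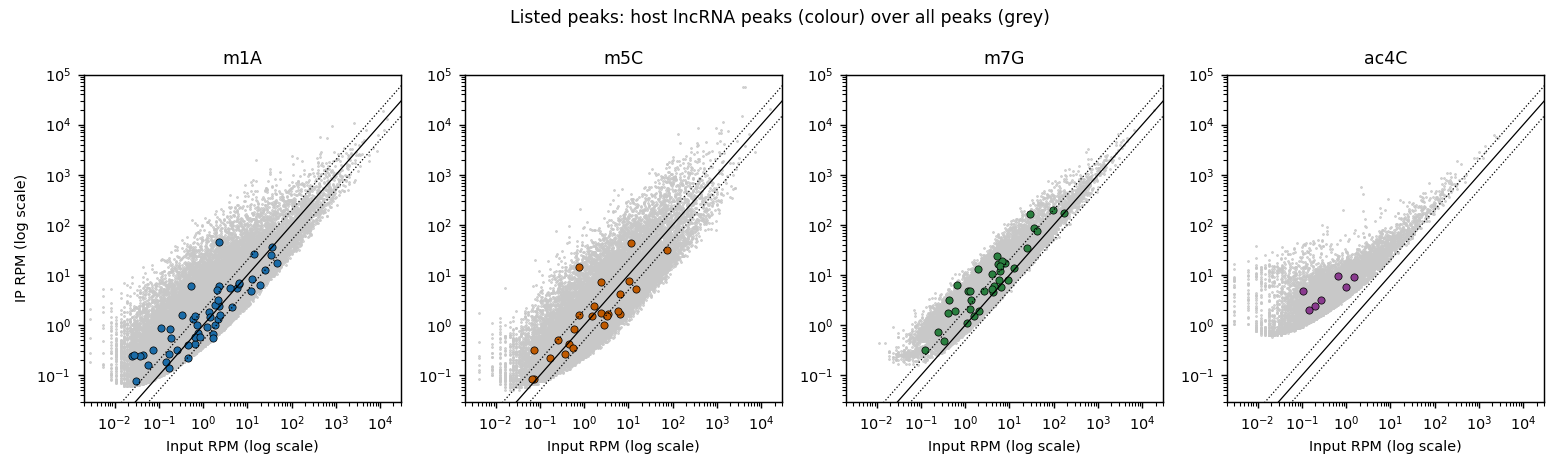
IP RPM against input RPM of each peak (both log scales) for the 4 antibody lists, with host peaks in colour over all peaks with input reads in grey; the solid line marks equal values and the dotted lines 2-fold differences. Host peaks spread over the range of input levels, and those with low input more often lie above the upper dotted line in the m1A panel.

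m1A, a methylation on the base-pairing face of adenosine, had the most host peaks, on both sides of input. Of 52 peaks in 16 hosts, 17 were at least 2-fold higher and 6 at least 2-fold lower in the IP, with 29 between. Over the whole list 44.7% of peaks were called higher and 10.8% lower. The median ratio was 1.16 in the hosts, below 1.67 for all peaks and 1.96 for 556 peaks of other lncRNA genes, and near 1.13 for 817 peaks of protein-coding snoRNA hosts. Relative to the list's median, 10 host peaks (19.2%) were called higher and 17 (32.7%) lower, against 32.7% and 11.5% on the RPM scale. On that scale 30.9% of all m1A peaks were called higher and 27.0% lower. The 17 higher peaks had a median input of 0.230 RPM per 100 bases and the other 35 had 2.58. In the whole list these medians were 0.356 and 2.37. For m5C the host medians were 0.639 for higher peaks and 1.81 for the others, and for m7G 2.68 and 6.18. The part of input level in the ratios was not tested.

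The highest m1A ratio belonged to a peak that names SNHG22 and SCARNA17. It had 46.3 RPM in the IP and 2.34 in the input, from 12990 and 854 reads, a ratio of 19.8 (18.4 to 21.2). Of its 400 bases, 396 lie in SCARNA17, whose annotated start is that of SNHG22, so the value describes the scaRNA sequence and the host's start together. SNHG21 came next with 6.17 against 0.545 RPM, a ratio of 11.3 (9.77 to 13.2), in a peak that begins at its annotated start. It was the host with ratios above 7 in both the m1A and the m7G list.

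Further m1A peaks above input had low input levels. EPB41L4A-AS1 had 0.249 against 0.0439 RPM over 25 bases, a ratio of 5.69 (3.27 to 10.5) from 70 and 16 reads. SNHG7, host of 2 SNORA genes, had 4.64 (3.52 to 6.17) and 4.87 (3.98 to 5.996) at its peaks. SNHG19 had 3.04 (2.27 to 4.10) and SNHG17 2.79 (1.63 to 4.92).

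SNHG14, the long transcript of the imprinted Prader-Willi region on chromosome 15, carried 19 of the 52 m1A peaks. Its deepest, which also names SNRPN and SNURF, had 36.6 against 35.3 RPM, a ratio of 1.04 (1.01 to 1.06). Without SNHG14, 10 host peaks were called higher in place of 17. Across its cluster of 30 SNORD116 genes (chr15:25051476-25108352) the m1A list held 10 peaks, 6 of them called higher. Near the first copies 5 of them ran from 4.38 to 9.68, the highest from 67 IP and 9 input reads, and 1 of them, naming SNORD116-4, had a ratio of 7.90 (5.63 to 11.3). The m5C list held 2 peaks in that cluster, neither called higher, and the m7G and ac4C lists held 0. The cluster also held 3 Psi summits, none of them inside a SNORD116 gene. Across the 48 SNORD115 genes further downstream (chr15:25170723-25269858) the 4 antibody lists held 0 peaks on the host's strand and no Psi summit lay there.

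At the low end, several hosts with higher input stood below it in the m1A IP. SNHG6 had 17.7 against 46.1 RPM, a ratio of 0.383 (0.371 to 0.396), over 300 bases. The 3 peaks that name SNHG3 and RCC1 had 0.867 (0.706 to 1.06), 0.332 (0.315 to 0.350) and 0.391 (0.368 to 0.416) from 5′ to 3′. Most of the last lies beyond the SNHG3 span, in a block from 10782 to 10885 bases. A 25-base peak of SNHG16 had 0.333 (0.278 to 0.397), while the first and last peaks of the same gene had 1.05 and 1.37. SNHG5 had 25.7 against 34.7 RPM, a ratio of 0.742 (0.720 to 0.763). All 4 GAS5 peaks were below 1, as given above. SNHG1 and ZFAS1 had no m1A peak.

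m5C, a methylation placed on many RNA classes, gave 25 peaks in 15 hosts, of which 6 were called higher and 7 lower. The whole list had 32.1% higher and 28% lower, and the median ratio was 0.916 in the hosts and 1.01 in the list. For 588 peaks of other lncRNA genes the median was 2.05, and for 532 peaks of protein-coding snoRNA hosts 0.767. As with m1A, the hosts lay nearer to the protein-coding snoRNA hosts than to other lncRNAs.

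A peak near the 3′ end of SNHG31 stood apart with 14.8 RPM in the m5C IP and 0.776 in the input, a ratio of 19.1 (16.4 to 22.4), at chr2:214962941-214963190. The next highest host peaks were SNHG19 with 4.30 (2.40 to 8.01) from 38 and 18 reads, the peak of PWARSN and SNHG14 with 3.71 (3.54 to 3.89) from 5130 and 2818 reads, and SNHG16 with 2.98 (2.68 to 3.32). The last-named lies in the 3′ part of its gene, and its second peak, further on, had 1.43 (1.23 to 1.67).

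The m5C peak with the deepest input among the hosts, in ZFAS1, had 31.998 against 74.9 RPM, a ratio of 0.427 (0.412 to 0.442). A second ZFAS1 peak, 50 bases from the gene's annotated 5′ end and upstream of its promoter entry's start, had 1.32 (0.776 to 2.22) from 26 and 40 reads. SNHG29 had the lowest ratio, 0.258 (0.222 to 0.299), followed by SNHG5 with 0.328 (0.284 to 0.377), a peak of SNHG14 with 0.359 and a peak of SNHG7 with 0.368. SNHG7 differed along its length, since its other m5C peak had 2.005 (1.38 to 2.90). SNHG6 had 7.57 against 10.2 RPM (0.745) and EPB41L4A-AS1 1.72 against 2.36 RPM (0.728). GAS5 and SNHG1 had no m5C peak.

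ac4C, an acetylation of cytidine, had 7 peaks in 6 hosts, all called higher. In that list 99.6% of peaks were called higher, so this count describes the list. The median host ratio was 12.6, against 11.9 for all peaks, 21.1 for other lncRNA genes and 7.34 for protein-coding snoRNA hosts. Relative to the list's median 1 host peak (14.3%) was called higher and 1 (14.3%) lower, in place of 100% and 0%. On that scale 28.1% of all ac4C peaks were called higher and 22.6% lower. The ac4C list named 0 of the 9 hepatocyte markers and 5 of 6 fibroblast and mesenchymal markers, whose input there was 0 to 0.585 RPM. The part of these in the host values was not tested.

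SNHG31 was highest here too, with 4.90 against 0.105 RPM, a ratio of 46.7 (31.1 to 71.4) from 84 and 35 reads, at chr2:214963216-214963365. This peak begins just after the end of the gene's m5C and m1A peaks. That m1A peak had a ratio of 1.42 (1.29 to 1.57). SNHG29 had 14.3 (11.6 to 17.6) and 13.5 (8.45 to 21.3), SNHG25 12.6 (8.32 to 18.8) and ZFAS1 11.4 (8.002 to 16.1), the last at 11003 bases from the 5′ end in a span of 11083. SNHG12 and SNHG1 had the lowest ratios, 6.01 (4.99 to 7.20) and 5.95 (4.71 to 7.46), whose intervals lie below the list's median. GAS5 and EPB41L4A-AS1 had no ac4C peak.

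**Figure D3:**
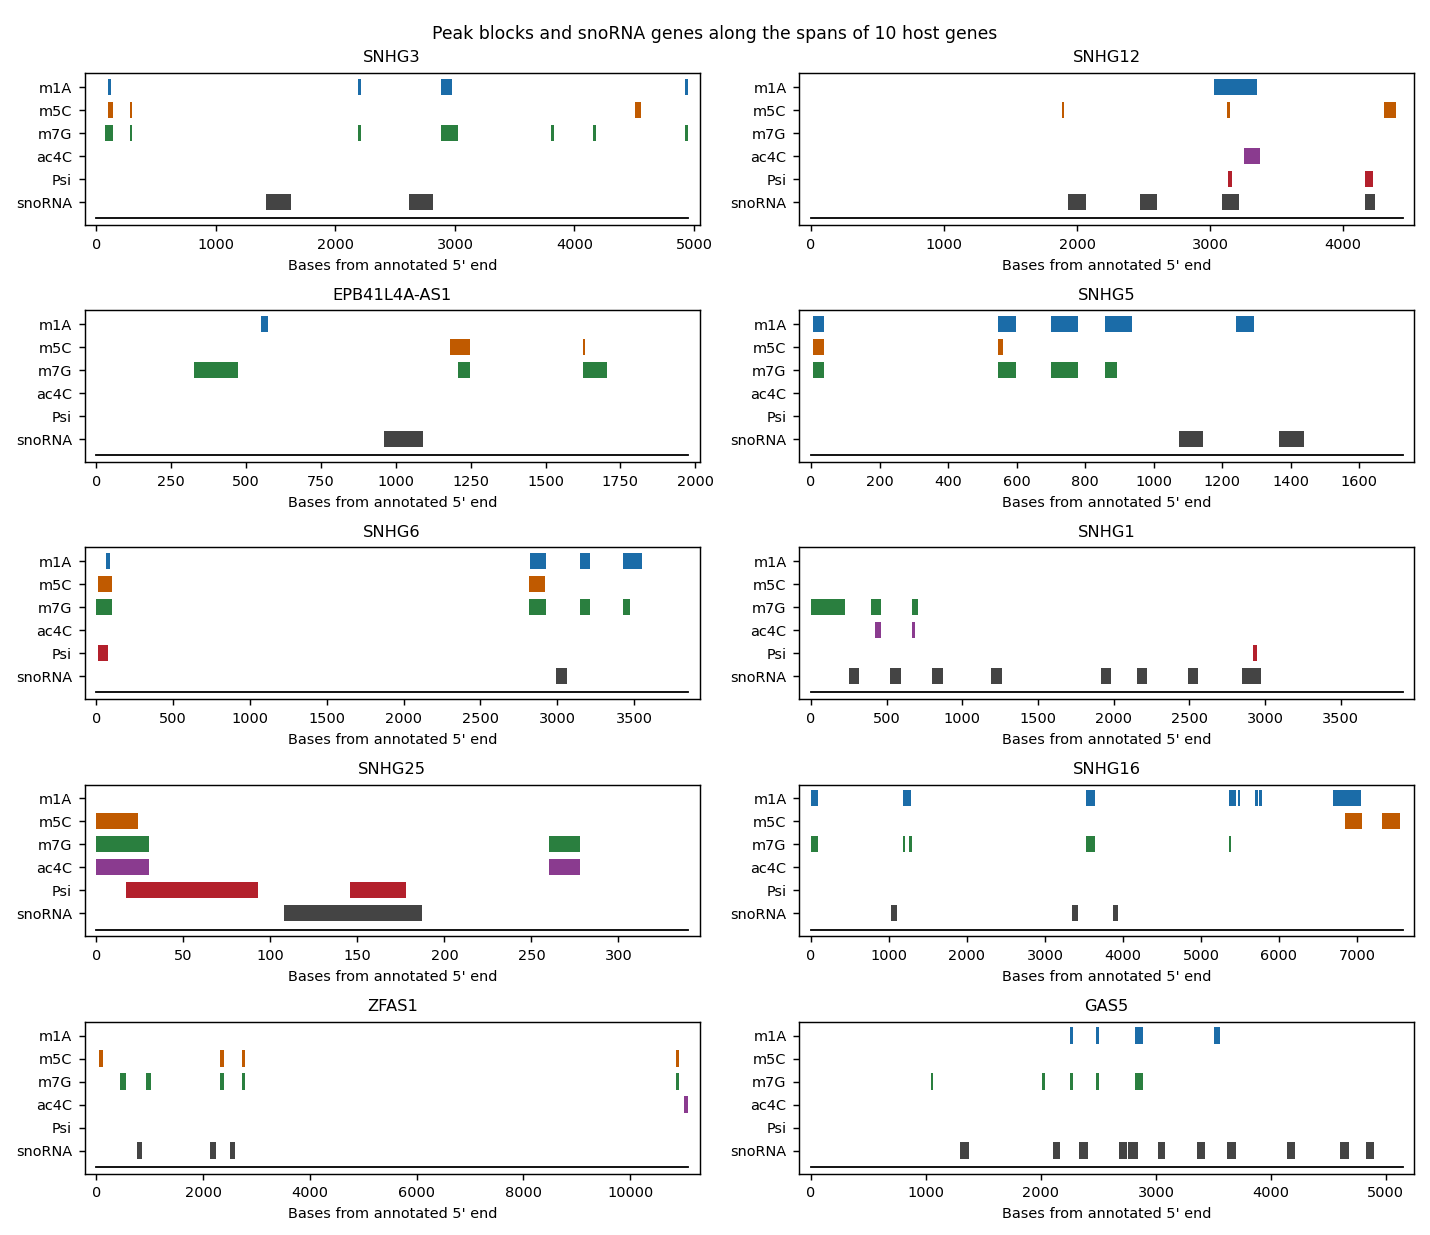
Blocks of the listed peaks that name the host (for Psi, with a summit in it) by modification, and the nested snoRNA and scaRNA genes along 10 host genes, as bases from each gene's annotated 5′ end: the 9 hosts under 12000 bases with peaks in at least 3 of the 5 lists, and GAS5; blocks beyond a span are cut at its ends. Most antibody blocks drawn lie outside the snoRNA genes. Peaks that name a nested RNA without its host, such as the ac4C peaks of SNORD26, SNORD104 and SNORD87, are not drawn. The placement of antibody blocks therefore follows in part from this selection. The Psi peaks, drawn by position, of SNHG12 and SNHG1 and 1 of the 2 of SNHG25 lie inside snoRNA genes.

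Of the 148 snoRNA and scaRNA genes in host spans, 10 were named by a listed antibody peak, in 18 peaks. The host was not named in 9 of those, including all 5 of the ac4C list. SNORD87, in SNHG6, had an ac4C ratio of 27.2 (14.8 to 51.0) from 28 and 20 reads, and SNORD49A, in SNHG29, 25.4 (14.8 to 44.1) from 34 and 26 reads. SNORD104 (SNHG25) and SNORD26 (SNHG1) followed with 13.0 and 12.8, and SCARNA17 had 7.19 (6.43 to 8.04). The list median of 11.9 lies inside or below all of these intervals but that of SCARNA17. For m1A, SNORD104 had 12.8 (5.54 to 36.2) from 59 and 6 reads.

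SCARNA17 was covered by peaks in all 5 lists, with ratios of 19.8 for m1A, 7.19 for ac4C, 1.99 for m7G and 0.589 for m5C, in windows of unequal extent. SNORD104 was covered in 4, with 2.55 (1.70 to 3.91) for m7G and no m5C peak. How far RNAs this short were captured in these size-selected libraries was not tested.

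Psi summits fell inside a nested snoRNA or scaRNA gene in 6 of the 24 host peaks, 25%. These genes cover 1.42% of the host spans, and of all Psi summits in the genome 0.15% lay in a snoRNA or scaRNA gene. The hosts were picked as genes that hold such RNAs, so the genome share is not a like comparison. Shares per small RNA gene are given below. The Psi fold is the caller's own, over local background without a control. The highest was SNORD104 in SNHG25 with 10.1 at a pileup of 11 tags, then SNORD22 in SNHG1 with 8.79, SCARNA17 in SNHG22 with 8.36 and 8.35, SNORA61 in SNHG12 with 7.98 and SNORD99 in SNHG12 with 7.13. The other 18 had a median fold of 5.37, against 8.35 for these 6. SNORA61 is of the H/ACA class that guides pseudouridylation, and SNORD104, SNORD22 and SNORD99 are of the C/D class.

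Of the 148 small RNA genes in hosts, 5 had a Psi summit, 3.38%, or 7.69% of the 65 outside SNHG14. The shares were 3.89% of 334 such genes in protein-coding spans and 5.49% of 91 in neither. The counts behind them are 5, 13 and 5 genes, and no order between these shares was tested. SCARNA17 shares its annotated start with SNHG22, and with no exon table used here it cannot be called intronic.

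The other 18 Psi summits were outside snoRNA genes, and 10 of them lie under a further gene on a list that gives no strand. The highest fold in any host, 15.5 at a pileup of 16 tags, and a second peak of 4.56 were in RPL10P6, a ribosomal protein pseudogene within SNHG31. In SNHG14, 4 summits lie under UBE3A, the gene it runs antisense to, 1 under SNRPN and SNURF and 5 under SNHG14 alone, the highest of the last with 7.78. SNHG6 had a summit 25 bases from its 5′ end with a fold of 7.38, also under MCMDC2, and SNHG29 had 2, both also under LRRC75A. The hosts with summits under no other gene were SNHG14, SNHG25 (5.02, at 25 bases from the start), SNHG30 (5.47) and SNHG32 (6.46, at 66 bases). SNHG32 had no antibody peak. In all 10 of 32 hosts had a Psi summit, and 6.22% of all lncRNA genes had one; spans differ in length between the groups.

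Overlap between lists was common for m1A and m7G. With at least 50% of the shorter peak shared, 21 of 52 m1A peaks (40.4%) and 21 of 36 m7G peaks (58.3%) overlapped, in 22 pairs and 10 hosts. The m7G ratio was the higher in 18 pairs, with separate intervals in 15, and the m1A ratio was higher with separate intervals in 3, those of SNHG22, SNHG21 and a peak shared with SNRPN. The clearest case was GAS5, where 3 pairs had identical coordinates: the m1A ratios were 0.624, 0.544 and 0.528 and the m7G ratios 2.23, 1.37 and 1.09. The input at those places was itself 2.88 to 3.69 times higher in RPM in the m7G libraries than in the m1A libraries. Across the whole lists 840 peaks had identical coordinates and the m7G ratio was higher in 60.1%, with a median m7G over m1A input of 1.59. The inputs come from different libraries, and their part in these ratios was not tested.

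**Figure D4:**
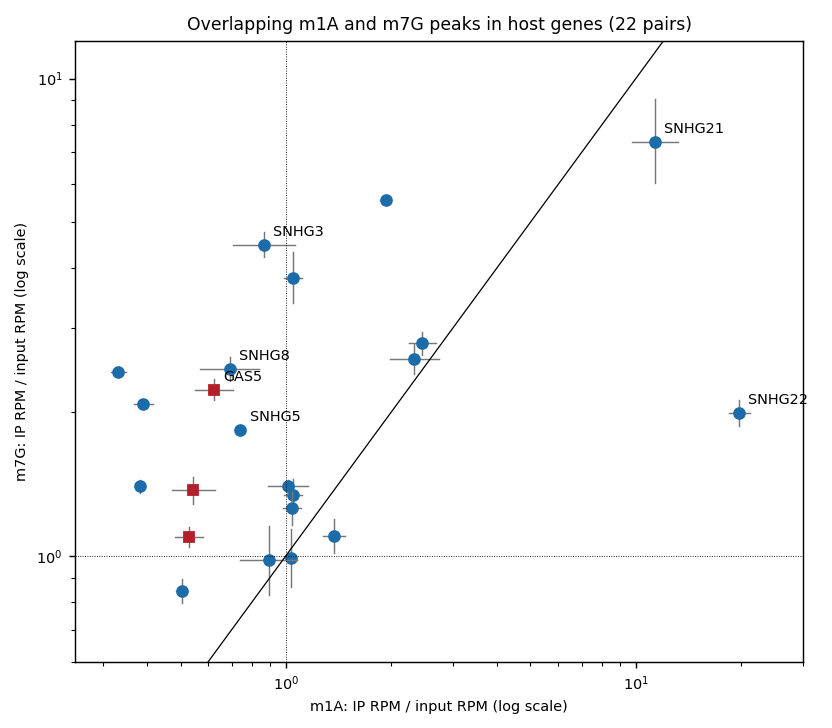
m7G ratio against m1A ratio (log scales) for the 22 overlapping peak pairs of the hosts, with 95% counting intervals, red squares for the 3 GAS5 pairs at identical coordinates and a diagonal of equal ratios. In 18 pairs the point lies above the diagonal, and SNHG22 and SNHG21 lie below it.

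m5C and m1A overlapped in 14 pairs, where the m5C ratio was higher in 5. SNHG31 had m5C at 19.1 against m1A at 1.42, and the PWARSN and SNHG14 peak 3.71 against 0.506. In the other direction an SNHG14 peak with identical coordinates in both lists, shared with SNRPN and SNURF, had 0.488 for m5C and 2.18 for m1A. SNHG25, the shortest host with a span of 340 bases, had m5C (1.27, from 10 and 16 reads), m7G (3.02), ac4C (12.6) and Psi (5.02) peaks at its start, the m7G and ac4C peaks at the same coordinates.

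By presence, SNHG29 was listed for all 5 modifications, and SNHG12, SNHG31, SNHG6, SNHG14, SNHG25 and SNHG22 for 4. m1A peaks were found in 16 hosts, m5C in 15, m7G in 18 and ac4C in 6 of 32. Among the 18330 lncRNA genes that RefSeq annotates, 1.97% had an m1A peak, 2.24% an m5C, 1.79% an m7G and 1.03% an ac4C peak. Listing needs reads, and how far expression set these shares was not tested. The 8 hosts with no peak were SNHG9, SNHG10, SNHG11, SNHG15, SNHG18, SNHG27, SNHG28 and SNHG33. SNHG33 appears under its older symbol LINC00888 with 2 m7G peaks, of ratio 3.88 (3.46 to 4.36) near its start and 0.921 (0.833 to 1.02) further on, which the symbol rule did not count.

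The proteins that build and hold snoRNA particles were examined from a separate list. Of its 18 genes for snoRNP proteins and their assembly, 14 had an m1A peak, 11 an m5C, 14 an m7G, 9 an ac4C and 10 a Psi peak. The share of all protein-coding genes with a peak was not measured, so these counts cannot be set against it. Of the 249 protein-coding snoRNA hosts, 185, 179, 181, 113 and 161 had a peak in these lists, in the same order. For the 18 snoRNP and assembly genes the median ratios were 1.09 for m1A, 0.925 for m5C, 1.47 for m7G and 6.09 for ac4C. Of the peaks of these 18 genes, 13 of 41, 9 of 31, 16 of 41 and 16 of 18 were called higher. Over all peaks the shares were 44.7%, 32.1%, 37.6% and 99.6%. NOP58, a core protein of C/D box particles, had the highest m5C ratio of any peak of the list, 23.4, and 1.51 for m1A and 0.907 for m7G, each at the gene's peak with the most IP reads. DKC1, the pseudouridine synthase of H/ACA particles, had 0.786 for m1A, 1.29 for m5C and 1.47 for m7G at the peaks chosen the same way. FBL, the ribose methyltransferase of C/D box particles, had no antibody peak.

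The factors of nonsense-mediated decay, which acts on several host RNAs, were listed in 13 of 14 for m1A, m5C and m7G, 10 for ac4C and 11 for Psi. The counts for the protein-coding snoRNA hosts, given above, stand beside these too, and no difference in listing was tested. Of their 91 m1A peaks 36 were called higher and 8 lower, and of 48 m5C peaks 11 were higher and 24 lower, with median ratios of 1.72 and 0.502. Over all m1A peaks 44.7% were higher and 10.8% lower, and over all m5C peaks 32.1% and 28%. The m7G median was 1.26 over 44 peaks and the ac4C median 6.38 over 18. UPF1, the helicase of the pathway, had ratios of 4.78 for m1A, 2.06 for m5C and 1.64 for m7G at its peaks with the most IP reads. UPF3B had 1.36, 7.78 and 1.59 at its own.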

How the data were processed

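RNA of HepAD38 cells was profiled in 27 libraries. The 4 antibody lists hold pooled RPM values of IP and input as deposited by the authors, with the authors' deposited log2 enrichment and p-value per peak. The sources used here do not name their peak caller. For Psi, per the file headers, MACS 2.2.6 pooled 3 libraries and had no control, and the pileup signal, fold over local background and −log10 q-value are its own, per the file headers. The submitters' processing notes name HISAT2, StringTie and hg38 without roles. Per the labels' protocols, stranded libraries carried unique molecular identifiers. Nothing says whether the 3 libraries of a group were separate cultures.

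Each RPM value was a multiple of 1 read (within 0.1 read), which gave the depth, the reads and the exact (Clopper-Pearson) 95% intervals. These cover counting error only. With no value per library, the planned count model was not run, and each call at 2-fold compares pooled libraries, not conditions. The members, lists and tests were chosen with earlier results of these data known. Values are given for the peaks of GAS5, SNHG1, ZFAS1 and EPB41L4A-AS1, the deepest peak of the 4 hosts with the most IP reads, the highest and lowest ratios with at least 20 reads, the 8 highest Psi folds and each nested RNA with a Psi summit. Others were chosen after their values were seen. Protein-coding snoRNA hosts were taken by span without strand, as the RefSeq table (GRCh38.p14, which matched 32 hosts) gives none. Alternatives covered the fold, an exact binomial test, scaling, shared peaks, stricter lists and gene assignment. Scripts ran in Python 3.11.15 with SciPy 1.17.1 and were tested on simulated data.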

Additional observations from a re-analysis of the deposited data

How the results depend on the processing

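Of 66 alternatives for counts, 51 stayed within 1.5 times the count reported, and the Psi counts (24 peaks, 6 in snoRNA genes, 10 hosts) did not move under any of theirs. For m1A, the 17 peaks called higher became 10 after scaling by the list's median ratio, 9 among peaks at or above median significance, and 10 without SNHG14 (an alternative added after the data had been seen). The 6 lower became 11 at 1.5-fold, 17 by the exact binomial test, 17 after scaling and 3 at or above median significance. For m5C the 7 lower became 11 by the binomial test. For m7G the 19 higher became 30 by the binomial test and 12 after scaling, and the 0 lower became 2 by the binomial test. For ac4C the 7 higher became 1 after scaling and 3 at or above median significance, the 0 lower became 1 after scaling, and the 6 hosts became 3 at or above median significance. Fewer peaks enter the stricter lists, and the binomial test calls small differences at deep peaks. Summed over all its peaks, a host's ratio moved beyond its interval in 17 of 55 cases and crossed 1 in 0 called cases. Below 2-fold, EPB41L4A-AS1 crossed 1 for m7G (0.889 to 1.14) and SNHG16 for m1A (1.05 to 0.962). For m5C a 2-fold difference was lost in SNHG14 (3.71 to 1.63), SNHG12 (2.10 to 1.66) and SNHG7 (0.368 to 0.505). No paired analysis was possible because the lists hold 1 pooled value per peak for IP and for input, so fits without each replicate could not be run either. Depth limited the ac4C IP most, at 17135274 reads, with 34 to 161 reads per host peak.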
